A study of Mus musculus with 15 samples.

Results

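B2 and B3 are families of short interspersed elements (SINEs), small mobile elements of the mouse genome that are copied through an RNA. The counts per repeat subfamily held 5 of them, taken by name from the 1217 subfamilies of the table. Those 5 are the B2 subfamilies B2_Mm1a, B2_Mm1t and B2_Mm2 and the B3 subfamilies B3 and B3A. All 5 were among the 803 subfamilies that passed the filter on low counts. The 10 subfamilies whose names start with B1 served as a reference.

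The RNA came from E14Tg2A cells, a mouse embryonic stem (ES) cell line. All cells were nucleofected with 5 nmol of an antisense oligonucleotide (ASO), left for 7 h, then transfected with 100 pmol of siRNA per well, and were collected unsorted on day 2. The ASO was LINE1, directed at the LINE1 family of mobile elements, or the control called RC, and the siRNA was siControl, siDux against the 2-cell embryo transcription factor gene Dux, or siNcl against the nucleolin gene Ncl. The 15 libraries formed 5 groups of 3, called by ASO and siRNA: RC siDux, RC siNcl and LINE1 siDux, with RC control and LINE1 control for those that got siControl. Nothing in the labels says that replicates came from separate cultures, and the spread behind each p-value is that between these samples, which may be technical.

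B2 and B3 elements descend from a tRNA gene and carry an internal promoter for RNA polymerase III, whereas B1 elements descend from 7SL RNA. B2_Mm1a and B2_Mm1t are young B2 subfamilies, B2_Mm2 is an older one, and the B3 elements are older relatives of B2. B2 RNA is known from mouse cells for its rise after heat shock and for its binding to RNA polymerase II, and many B2 copies hold a binding site for the insulator protein CTCF. Most copies lie within or beside genes, so reads can come from the element's own transcript or from a gene's transcript that contains a copy. Counts per subfamily do not tell these sources apart.

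How reads with several matches were counted, whether strand was used and which repeat annotation was taken are not given in the sources used here. Near-identical subfamilies such as B2_Mm1a and B2_Mm1t can share reads, so the split between them is uncertain. Values are CPM, the reads on a subfamily per M of the library's gene counts, scaled by TMM factors of the gene table. Copy numbers were not used, so levels are compared between groups and not between subfamilies. In bulk RNA, fewer cells of a type and less RNA per cell cannot be told apart.

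Gene counts came to between 9.55 M and 27.6 M per library and reads on repeats to between 5.81% and 8.49% of them. RC control replicate 2 stood apart, with a TMM factor of 0.874, where the others ran from 0.965 to 1.07, and 6.24% of gene counts in its top 10 genes. The 3 RC control libraries, the baseline of 3 comparisons below, lay lowest on the first principal component of the genes. RC control had 5129.7 ± 932 CPM of Ncl, the target of siNcl, where RC siNcl had 593 ± 67.7 CPM (SD, n = 3 for both). Dux, the target of siDux, was near the floor under RC ASO, between 0.0958 and 0.41 CPM with siControl and between 0 and 0.32 CPM with siDux, which overlap. Under LINE1 ASO it ran from 0.82 to 1.38 CPM with siControl and from 0.459 to 0.642 CPM with siDux, without overlap, but did not pass the test (adjusted p = 0.298, edgeR). Summed reads on the young LINE1 subfamilies named L1Md were not lower with LINE1 ASO: RC control had 3623 to 6841 CPM and LINE1 control 5402 to 8392 CPM, and RC siDux 5695 to 9469 CPM and LINE1 siDux 6079 to 8893 CPM. These counts show no loss of LINE1 RNA in the libraries labelled LINE1, and Dux under RC ASO was too low to check the siDux label. The 2-cell-like markers, 7 of 8 measured, summed to 12.7 to 17.4 CPM in RC control and 1.4 to 2.56 CPM in RC siDux. Their sums were 86 to 106.4 CPM in LINE1 control and 24.3 to 31.7 CPM in LINE1 siDux, so these markers did differ by siRNA. As to the targets themselves, directions given for both agents rest on the labels. ES cell markers, 8 of 8 measured, summed to between 3885 and 8776 CPM, the highest sum being that of RC control replicate 2. Fibroblast markers, 8 of 8 measured but only 5 past the filter on low counts, summed to between 35.8 and 66.1 CPM. In RC control 1 of the 8 was at 0 in every library, as was 1 in RC siNcl.

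B2 and B3 together took between 4.49% and 6.54% of the reads on repeats. Among reads on the 5 subfamilies, B3 took 22.8% to 34.4%, B2_Mm2 22.2% to 26%, B3A 13.7% to 19%, B2_Mm1a 12.9% to 23.4% and B2_Mm1t 9.09% to 14%. Even the smallest value, for B2_Mm1t, rested on 3281 reads.

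B2_Mm1a had the widest range. RC control replicates 1 to 3 had 876, 1019.9 and 619 CPM and the RC siDux libraries 601, 588 and 767 CPM. The LINE1 control libraries had 548, 549 and 657 CPM and those of LINE1 siDux 600.1, 549 and 652 CPM. The RC siNcl libraries were at 487, 532 and 446 CPM. RC siNcl was thus the lowest group, with no library reaching any library of another group. RC control held the highest and also one of the middle values, its replicate 3 lying among the siDux and LINE1 libraries.

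B2_Mm1t followed the same order. RC control had 529, 610 and 387 CPM of it, RC siDux 412, 402 and 469.7 CPM, and LINE1 control 377, 368 and 398.5 CPM. The LINE1 siDux libraries had 412.5, 373 and 423 CPM and the RC siNcl libraries 349, 352 and 306 CPM. Again RC siNcl lay below every other library, and RC control replicate 3 lay inside the range of the other groups.

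The group means of B2_Mm1a fell in the order RC control (838 ± 203 CPM), RC siDux (652 ± 99.9), LINE1 siDux (600.5 ± 51.7), LINE1 control (585 ± 62.6) and RC siNcl (488 ± 42.8). For B2_Mm1t the order of the means was the same, from 509 ± 113 CPM in RC control through 428 ± 36.5, 403 ± 26.3 and 381 ± 15.6 to 336 ± 25.9 CPM in RC siNcl. No step between neighbours in this order passed a test, as the comparisons below show.

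B2_Mm2, the third B2 subfamily, showed no such order. Its means were 981 ± 142.5 CPM for RC control and 906 ± 62.4 for RC siNcl, with RC siDux at 908 ± 29.2, LINE1 control at 895 ± 49.5 and LINE1 siDux at 926 ± 36.6 CPM. Single libraries ran from 842 CPM in RC siNcl replicate 3 to 1129.6 CPM in RC control replicate 2, and the 5 groups overlapped.

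B3 was lowest in RC control, at 1252, 993 and 1126 CPM in its 3 libraries (mean 1124 ± 129). The other means were 1239.6 ± 71.5 CPM in RC siNcl, 1267 ± 91.8 in LINE1 control, 1289.9 ± 89.6 in RC siDux and 1309.8 ± 75.8 in LINE1 siDux. B3A had means of 627 ± 40.5 CPM in RC control, 649 ± 33.8 in RC siNcl, 687 ± 40.5 in RC siDux, 701.5 ± 59 in LINE1 control and 707.5 ± 57.6 in LINE1 siDux. For B3 and B3A the libraries of every group overlapped those of RC control, whose replicate 2 was the lowest library of all.

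**Figure D1:**
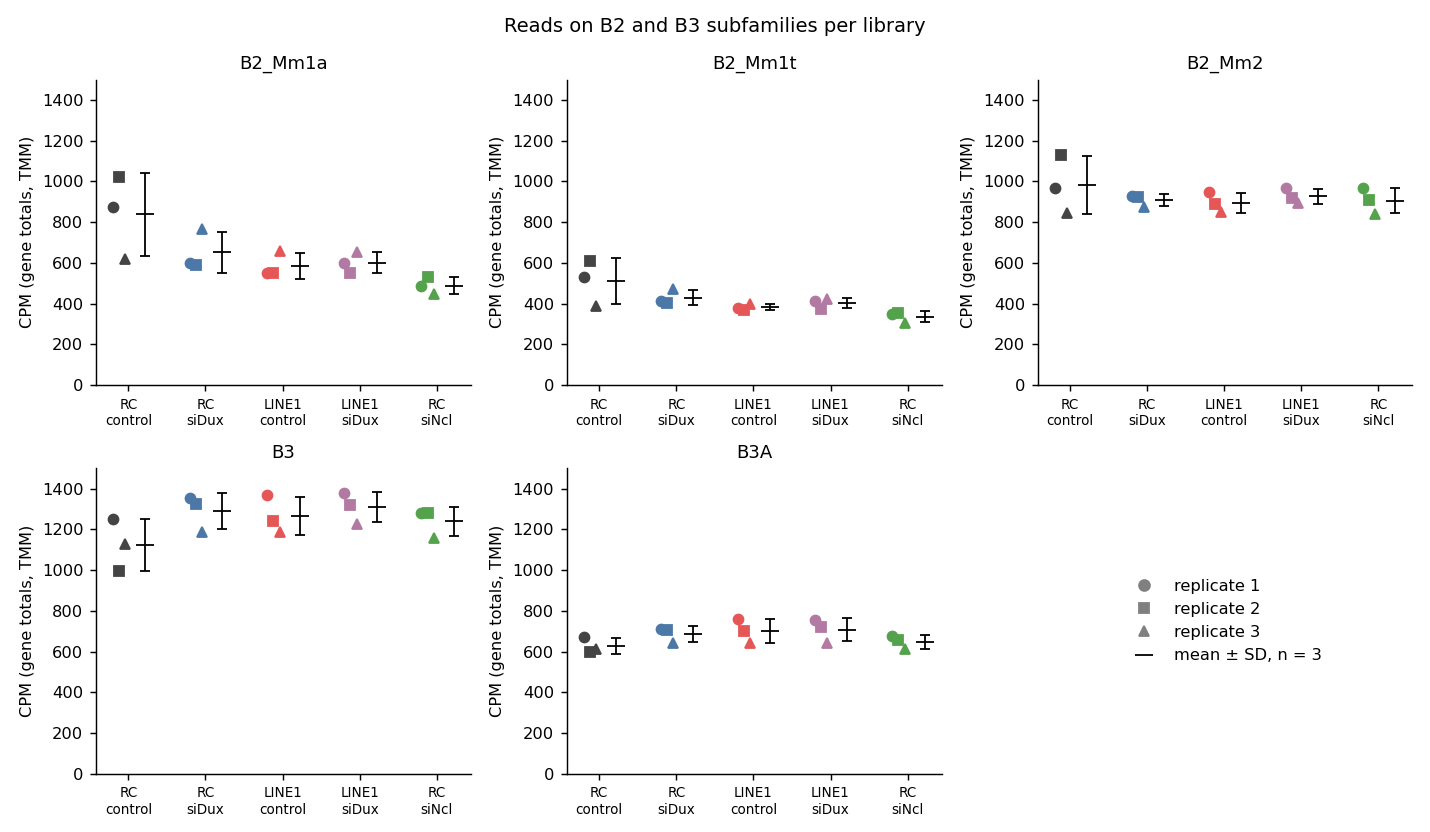
Reads on each B2 and B3 subfamily in CPM (vertical axis) for the 3 libraries of each group, with symbols for the replicate number and bars for mean ± SD. B2_Mm1a and B2_Mm1t lie lowest in RC siNcl and highest in RC control replicate 2, while B2_Mm2, B3 and B3A overlap between all groups.

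Over the 15 libraries log2 levels of B2_Mm1a and B2_Mm1t ran together (Pearson's r = 0.982), as did those of B3 and B3A (r = 0.903). B2_Mm2 followed B2_Mm1a less closely (r = 0.539), and B2_Mm1a and B3 ran in opposite directions (r = -0.53). These are descriptions over 15 libraries that share scaling, depth and groups, and near-identical subfamilies may share reads.

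The first comparison set RC siNcl, with siRNA against the nucleolin gene, against RC control. Of the 5 subfamilies 2 fell and 0 rose, against a background in which 1.37% of the 803 subfamilies fell and 6.1% rose. B2_Mm1a fell by 0.78 ± 0.15 (SE) on the log2 scale, to 58.3% of its control level (adjusted p = 0.00466, edgeR's quasi-likelihood test with Benjamini-Hochberg adjustment over all subfamilies, n = 3 in each group). B2_Mm1t fell by 0.60 ± 0.13, to 66% (adjusted p = 0.00841). Their changes ranked 18 and 35 from the lowest of 803, where the median of all subfamilies was 0.14.

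Not overlapping with RC control were the same 2 subfamilies, both lower, which held for 6.85% of all subfamilies in that direction and for 21% in the other. B2_Mm2 had a log2 change of -0.12 ± 0.11 (adjusted p = 0.515), B3 of 0.14 ± 0.10 (adjusted p = 0.403) and B3A of 0.05 ± 0.10 (adjusted p = 0.8). The 10 B1 subfamilies lay between -0.07 and 0.30, with a median of 0.07 and no adjusted p under 0.0756. B4 and B4A, which belong to a further SINE family of rodents, stood at 0.19 and 0.27 and did not pass (adjusted p = 0.266 and 0.151).

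These 2 calls depended on the baseline, the scaling and the libraries fitted. Against RC siDux in place of RC control, a baseline chosen after the data had been seen, B2_Mm1a stood at -0.42 (adjusted p = 0.236) and B2_Mm1t at -0.35 (adjusted p = 0.256). Neither passed with scaling to ERCC spike-ins, where the log2 changes were of similar size (-0.74 and -0.55). Nor did they when only the 6 libraries of the comparison were fitted (adjusted p = 0.0608 and 0.102). Without RC control replicate 2, the library that stood apart, both passed with smaller changes of -0.62 and -0.45 (adjusted p = 0.0131 and 0.0254), and without RC siNcl replicate 3 B2_Mm1t did not pass (-0.53, adjusted p = 0.0514).

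The 2-cell-like markers, 7 of 8 measured, summed to between 12.7 and 17.4 CPM in RC control and to between 54.3 and 99.5 CPM in RC siNcl. ES cell markers summed to between 4906 and 8776 CPM in RC control and between 4026 and 5043 CPM in RC siNcl, and no marker of that list was at 0. The part of these states in the B2 change was not tested.

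**Figure D2:**
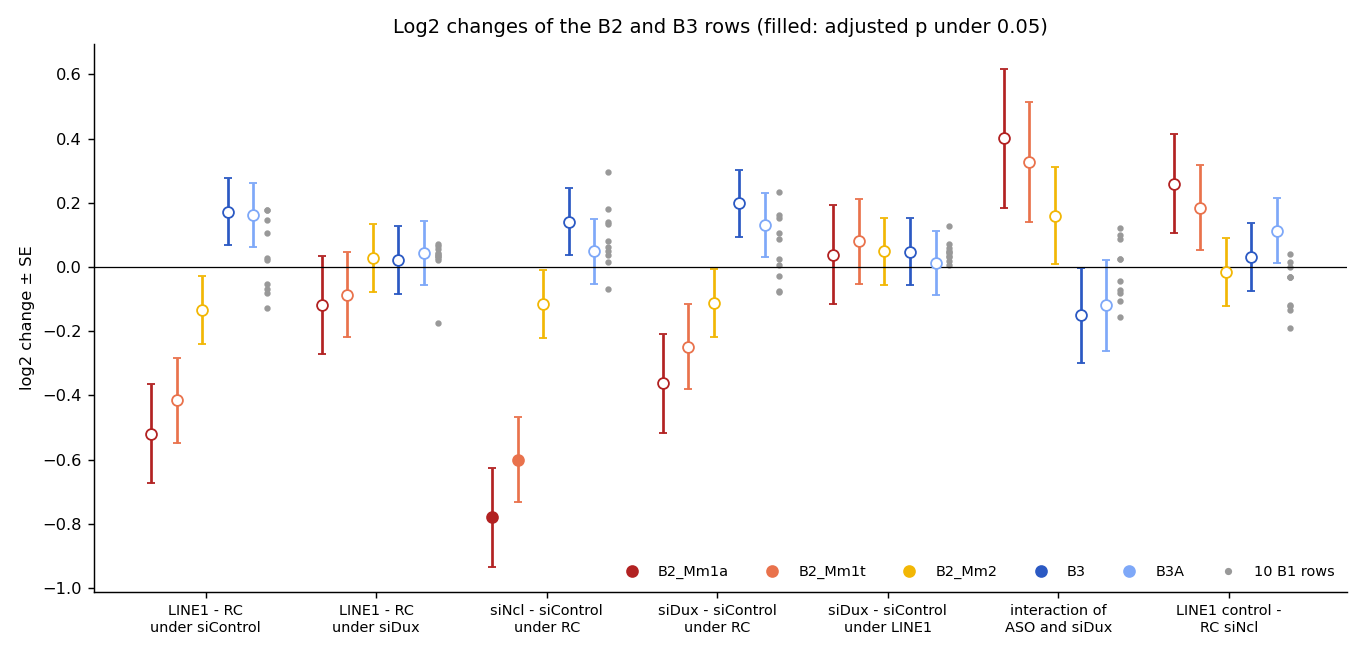
Log2 change ± SE (vertical axis) of each B2 and B3 subfamily in the 7 comparisons, filled where the adjusted p was under 0.05, with the 10 B1 subfamilies as grey points. The filled points are B2_Mm1a (-0.78) and B2_Mm1t (-0.60) with siNcl, and B2_Mm1a and B2_Mm1t lie below B2_Mm2, B3 and B3A in the 3 comparisons with RC control as baseline.

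The second comparison, of LINE1 control with RC control, shares its RC control libraries with the first. No B2 or B3 subfamily passed the test, where 0.872% of all subfamilies fell and 4.98% rose. B2_Mm1a was at 69.8% of its RC control level (log2 change -0.52 ± 0.15, adjusted p = 0.0502) and B2_Mm1t at 75% (-0.42 ± 0.13, adjusted p = 0.0697). At an unadjusted p under 0.05 edgeR had 2 of the 5 and 211 of the 803. DESeq2 called those 2 lower (adjusted p = 0.0277 and 0.0454), among 20 subfamilies it called lower in all. An edgeR fit with the replicate number as a block also called those 2 lower, as described at the end. B2_Mm2 had a log2 change of -0.13 ± 0.11 (adjusted p = 0.407), B3 of 0.17 ± 0.10 (adjusted p = 0.293) and B3A of 0.16 ± 0.10 (adjusted p = 0.301). All 5 overlapped between the groups, where 4.48% of all subfamilies were lower and 17.8% higher in every LINE1 control library than in any RC control library.

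Single libraries decided on which side of the threshold the young B2 subfamilies fell. Without RC control replicate 3, the lowest of its group, both passed (-0.69 and -0.57, adjusted p = 0.00604 each), and without LINE1 control replicate 3 B2_Mm1a did (-0.60, adjusted p = 0.0311). Without RC control replicate 2 the changes were -0.35 (adjusted p = 0.191) and -0.26 (adjusted p = 0.213). The 10 B1 subfamilies lay between -0.13 and 0.18, none with an adjusted p under 0.26. The 2-cell-like markers summed to between 86 and 106.4 CPM in LINE1 control, and their part in these values was not tested. The L1Md sum was higher in mean, not lower, in the libraries labelled LINE1 control (7067 ± 1524 CPM) than in RC control (4988 ± 1663 CPM), with overlap, so the direction given for LINE1 ASO rests on the labels.

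**Figure D3:**
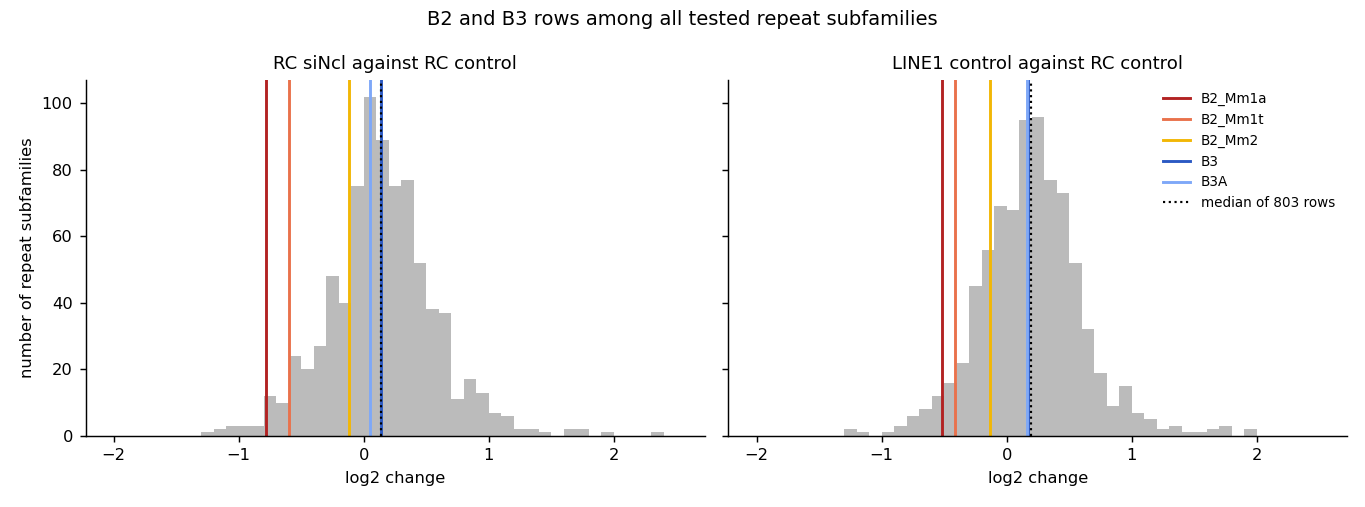
Number of repeat subfamilies (vertical axis) by log2 change (horizontal axis) for RC siNcl and for LINE1 control, each against RC control, with lines for the B2 and B3 subfamilies and a dotted line for the median of the 803. B2_Mm1a (-0.78 and -0.52) and B2_Mm1t (-0.60 and -0.42) lie in the lower tail and B3 and B3A near the medians of 0.14 and 0.20.

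The third comparison with that baseline set siDux against siControl under RC ASO. The log2 changes were -0.36 ± 0.15 for B2_Mm1a (adjusted p = 0.31), -0.25 ± 0.13 for B2_Mm1t (adjusted p = 0.381) and -0.11 ± 0.11 for B2_Mm2 (adjusted p = 0.63). B3 was at 0.20 ± 0.10 (adjusted p = 0.372) and B3A at 0.13 ± 0.10 (adjusted p = 0.535). With edgeR 0 of the 5 passed, with 0.374% of all subfamilies passing, and DESeq2 called 0. At an unadjusted p under 0.05 edgeR had 1 of the 5 (B2_Mm1a) and 119 of the 803. RC siDux replicate 3, at 767 CPM of B2_Mm1a, lay inside the range of RC control while the other 2 libraries of its group lay below it. The 2-cell-like markers were lower in RC siDux, at 1.4 to 2.56 CPM in sum, than in RC control, whereas in RC siNcl and LINE1 control they were higher. The change of B2_Mm1a with siDux did not pass, and its baseline is shared with the other comparisons. The part of these markers in the B2 values was not tested.

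The comparisons without RC control gave small differences. Between LINE1 siDux and RC siDux the 5 log2 changes lay between -0.12 ± 0.15 (B2_Mm1a, adjusted p = 0.843) and 0.04 ± 0.10 (B3A, adjusted p = 0.908), and 0.747% of all subfamilies passed. Between LINE1 siDux and LINE1 control they lay between 0.01 ± 0.10 (B3A) and 0.08 ± 0.13 (B2_Mm1t), each with an adjusted p of 0.997, and 0.249% of all subfamilies passed. In both, edgeR called 0 of the 5, with 0 at an unadjusted p under 0.05, and DESeq2 called 0.

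LINE1 control and RC siNcl were also set directly against each other. B2_Mm1a was higher in LINE1 control by 0.26 ± 0.15 on the log2 scale (adjusted p = 0.561) and B2_Mm1t by 0.18 ± 0.13 (adjusted p = 0.659), and neither passed. Their libraries did not overlap between the groups, which held in that direction for 10.6% of all subfamilies. B2_Mm2 (-0.02 ± 0.11), B3 (0.03 ± 0.10) and B3A (0.11 ± 0.10) overlapped. EdgeR called 0 of the 5, with 0 at an unadjusted p under 0.05, DESeq2 called 0, and 0.498% of all subfamilies passed.

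The interaction of ASO and siDux asked whether the LINE1 difference depended on siDux. It was 0.40 ± 0.22 for B2_Mm1a and 0.33 ± 0.19 for B2_Mm1t on the log2 scale (adjusted p = 0.931 for both). For B2_Mm2, B3 and B3A it was 0.16 ± 0.15, -0.15 ± 0.15 and -0.12 ± 0.14 (adjusted p = 0.941 each). EdgeR called 0 of the 803 subfamilies for this term (0%), with 25 at an unadjusted p under 0.05 and none of the 5 among them. DESeq2 called 0 of the 5.

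Ratios of reads within a library do not depend on its scaling. The ratio of summed B2 to summed B3 reads was 1.23, 1.74 and 1.07 in RC control replicates 1 to 3 and 0.938, 0.94 and 1.16 in RC siDux. With LINE1 ASO it was 0.88, 0.93 and 1.04 under siControl and 0.926, 0.901 and 1.05 under siDux, and the RC siNcl libraries had 0.92, 0.925 and 0.901. LINE1 control, LINE1 siDux and RC siNcl lay below every RC control library, and RC siDux overlapped with it through its replicate 3. RC siNcl was the tightest group, with a mean of 0.915 ± 0.0127 against 1.35 ± 0.35 in RC control.

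On the log2 scale this ratio differed from RC control by -0.52 in RC siNcl, by -0.47 in LINE1 control and by -0.39 in RC siDux. Without RC control replicate 2 the differences were -0.32, -0.28 and -0.19. Between LINE1 siDux and RC siDux the ratio differed by -0.07 and between LINE1 siDux and LINE1 control by 0.02. No p is given for these sums, since the subfamilies were chosen with results of these data known.

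Summed B2 reads accounted for most of the ratio's difference with siNcl. They came to 2374, 2759.5 and 1851 CPM in RC control and to 1803, 1792 and 1594 CPM in RC siNcl, a log2 difference of -0.41 with no overlap. Summed B3 reads came to 1924.5, 1589.9 and 1738 CPM in RC control and 1959, 1937 and 1768 CPM in RC siNcl, a difference of 0.11 with overlap. In LINE1 control, summed B2 and B3 reads differed from RC control by -0.3 and 0.17. In RC siDux they differed by -0.21 and 0.18, and all of these overlapped with RC control. The sum of B1 stayed between 4062 and 4669 CPM over the 15 libraries, and its log2 differences lay between -0.05 in LINE1 control against RC siNcl and 0.07 in RC siNcl against RC control. Against the B1 sum, B2 reads ran at a ratio of 0.552, 0.612 and 0.456 in RC control and of 0.388, 0.395 and 0.369 in RC siNcl.

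Within B2 the balance between young and older subfamilies differed between the groups too. Reads on B2_Mm1a per read on B2_Mm2 were 0.904, 0.903 and 0.732 in RC control and 0.503, 0.585 and 0.53 in RC siNcl, with no overlap. RC siDux had 0.648, 0.638 and 0.877, LINE1 control 0.579, 0.616 and 0.774, and LINE1 siDux 0.621, 0.598 and 0.73. In each of these 3 groups replicate 3 was the highest, as it was for B2_Mm1a in CPM. Reads on B3A per read on B3 ran only from 0.514 to 0.601 over all libraries, the highest being RC control replicate 2.

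**Figure D4:**
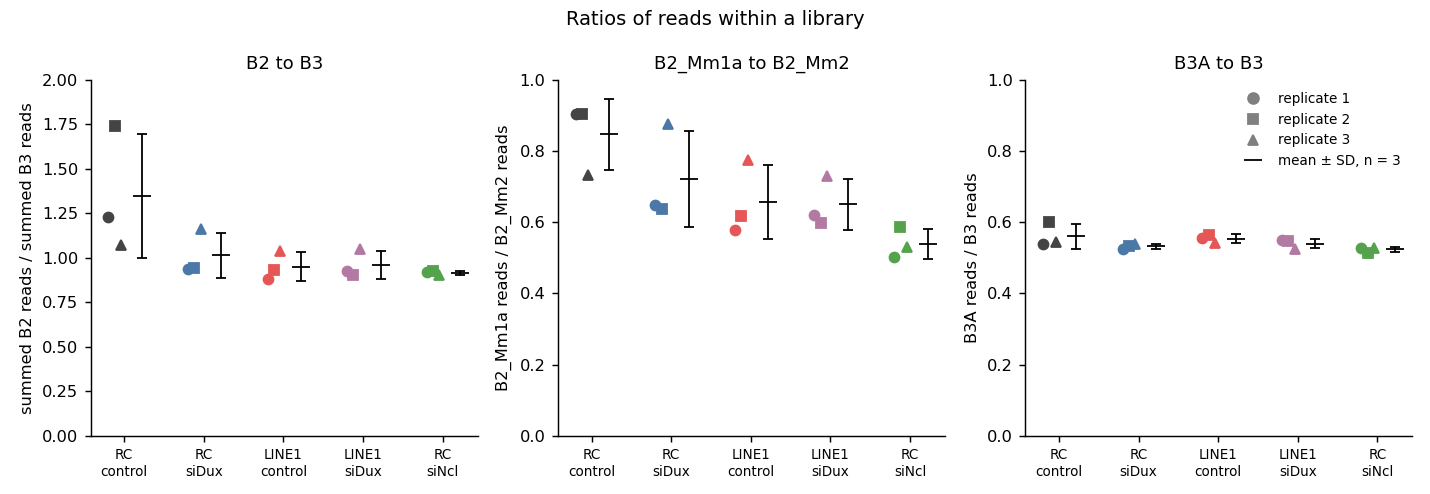
Ratios of reads within each library (vertical axis) for B2 to B3, B2_Mm1a to B2_Mm2 and B3A to B3, with symbols for the replicate number and bars for mean ± SD of the 3 libraries of a group. The ratio of B2 to B3 runs from 1.07 to 1.74 in RC control and from 0.901 to 0.925 in RC siNcl, and that of B3A to B3 stays between 0.514 and 0.601.

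Genes of RNA polymerase III, of the heat shock response and of chromatin regulation were read from lists drawn up with earlier results of these data known. Of 30 genes of RNA polymerase III and its factors, 5 rose and 9 fell with siNcl (median log2 change -0.11), where 16.7% of the 14696 genes tested rose and 15.6% fell (median -0.01). Gtf3c1, the subunit of TFIIIC that binds the internal promoter, rose by 0.96 ± 0.09 on the log2 scale, between means of 166 ± 10.8 and 323 ± 9.9 CPM (adjusted p = 7.11e-07). Polr1c, a subunit shared by RNA polymerases I and III, fell by 0.79 ± 0.11 (adjusted p = 6.58e-05), and Polr2e, shared by all 3 nuclear polymerases, fell by 0.66 ± 0.13 (adjusted p = 0.000864). The count that rose was 3 without RC control replicate 2 or RC siNcl replicate 1 and 2 without RC siNcl replicate 3, and the count that fell was 5 and 4 without RC siNcl replicates 2 and 3. With only the 6 libraries of the comparison fitted, 2 rose and 3 fell.

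In the heat shock list, 3 of 19 rose and 9 fell with siNcl (median -0.26). The co-chaperone gene Fkbp4 fell by 0.60 ± 0.11 (adjusted p = 0.000467), the chaperone gene Hspa4 by 0.44 ± 0.08 (adjusted p = 0.000523) and the mitochondrial co-chaperonin gene Hspe1 by 0.58 ± 0.12 (adjusted p = 0.00208). With 1 library left out, the rises numbered 1 to 2 and the falls 5 to 9. Without RC siNcl replicate 3 the counts were 1 and 5, and 1 rose without RC control replicate 1 or RC siNcl replicate 2. Of 16 chromatin regulators known to act on SINEs or other repeats 1 rose and 5 fell (median -0.14). Cbx1, which encodes the heterochromatin protein HP1 beta, fell by 0.70 ± 0.10 (adjusted p = 5e-05) and the corepressor gene Trim28 by 0.55 ± 0.11 (adjusted p = 0.00144). Suv39h1, a histone methyltransferase gene, rose by 0.63 ± 0.19 (adjusted p = 0.0182), but did not pass without RC control replicate 2 (0.47) or RC siNcl replicate 3 (0.50). The chromatin regulators that fell numbered 2 to 4 with 1 library left out. Of them 3 fell without RC siNcl replicate 1 and 2 without RC siNcl replicate 2 or 3, and 2 fell with only the 6 libraries fitted.

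Under LINE1 ASO with siControl, 2 of the 30 polymerase genes rose and 6 fell (median -0.10), 1 of the 19 heat shock genes rose and 7 fell (median -0.28), and 4 of the 16 chromatin regulators fell (median -0.08). Of all genes 9.35% rose and 9.69% fell (median 0.02). Polr1c fell by 0.53 ± 0.11 (adjusted p = 0.00601), Polr3g, a polymerase III subunit of stem cells, by 0.41 ± 0.09 (adjusted p = 0.00722), Fkbp4 by 0.45 ± 0.11 (adjusted p = 0.0119) and Cbx1 by 0.49 ± 0.10 (adjusted p = 0.00451). None of these 4 passed when only the 6 libraries of the comparison were fitted (adjusted p between 0.0591 and 0.124), and Polr3g and Fkbp4 did not without LINE1 control replicate 1. Without LINE1 control replicate 1 the falls in the 3 lists numbered 1, 0 and 1, without LINE1 control replicate 2 they were 2, 1 and 1, and without RC control replicate 2 they were 2, 2 and 3. The polymerase list had 10 falls without RC control replicate 3. Its rises numbered 1 when replicate 1 of RC control or replicate 3 of LINE1 control was left out, and 0 when replicate 2 of RC control or replicate 1 or 2 of LINE1 control was. The heat shock list had 1 rise without LINE1 control replicate 3 and 0 when any other of the 6 libraries was left out. Both comparisons above share RC control with that of siDux under RC ASO. There 3 polymerase genes rose and 2 fell, 2 heat shock genes fell and 4 chromatin regulators fell. Of all 14696 genes 895 rose and 661 fell. With 1 library left out, the list counts ran from 1 to 3, 1 to 6, 1 to 3 and 1 to 4. Gtf3c1 (230 ± 24.5 CPM in RC siDux) passed as higher in all 6 such fits, and Cbx1 (193 ± 10.9) and Fkbp4 (848 ± 36.2) as lower.

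The subfamilies and genes whose log2 levels ran most like those of the summed B2 or B3 reads over the 15 libraries are named as a description, with Pearson's r. Of 434 other subfamilies with at least 100 counts on average, the 5 nearest to B2 were (CGAG)n (r = 0.872), BC1_Mm (0.846), LTR16D1 (0.844), polypurine (0.839) and GC_rich (0.825). BC1_Mm holds the gene of BC1, a neuronal RNA of rodents that RNA polymerase III transcribes and that also descends from a tRNA gene. It ran from 75.8 to 213.9 CPM in RC control and from 58.5 to 76 CPM in the other 4 groups. With siNcl it fell by 0.98 ± 0.26 (adjusted p = 0.0234). It did not pass without RC control replicate 2 (-0.35, adjusted p = 0.056), without RC siNcl replicate 1, 2 or 3 (-1.06, -0.93 and -0.95) with only the 6 libraries of the comparison fitted, with ERCC scaling or against RC siDux (-0.14).

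Of 7492 genes with at least 20 CPM on average, the 5 nearest to B2 were the DNA repair nuclease gene Dclre1c (r = 0.933), the ribonuclease P subunit gene Pop4 (0.926), the oxidative phosphorylation genes Cox7c (0.916) and Atp5k (0.91) and Creld2 (0.906). Dclre1c, the nearest, was at 36 ± 4.23 CPM in RC control and at 28 ± 1.86 CPM in RC siNcl. The subfamilies nearest to B3 were RMER2 (r = 0.957), L1_Mur2 (0.952), MusHAL1 (0.95), L1MB8 (0.95) and L1Md_A (0.946), all but RMER2 being LINE1 elements or derived from LINE1. The genes nearest to B3 were the kinase gene Grk4 (r = 0.941), Gm17821 (0.93), 4932411L15 (0.92), Zfp488 (0.918) and Kcnq1ot1 (0.916), which encodes a long nuclear RNA. The libraries share depth, scaling and groups, and RC control replicate 2 was the highest library for summed B2 and the lowest for summed B3.

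**Figure D5:**
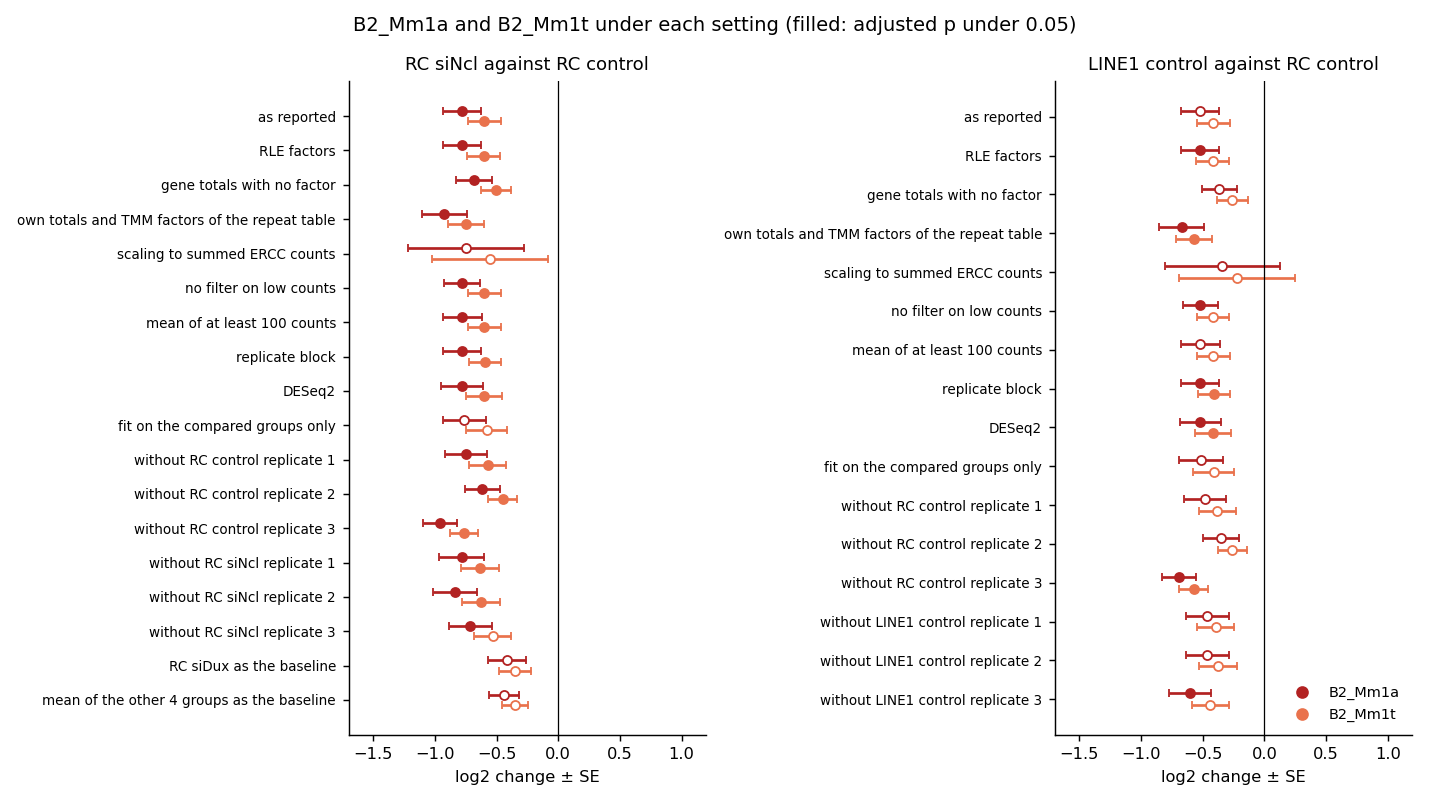
Log2 change ± SE (horizontal axis) of B2_Mm1a and B2_Mm1t under each processing setting and with each library left out, for RC siNcl and for LINE1 control against RC control, filled where the adjusted p was under 0.05. Every point lies below 0, and the calls with siNcl are lost with ERCC scaling, in a fit on the compared groups and with either other baseline.

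The plot of settings shows that direction held for both young B2 subfamilies in both comparisons while the call did not. With siNcl the log2 change of B2_Mm1a ran from -0.96 to -0.62 with 1 library left out and that of B2_Mm1t from -0.76 to -0.45. With LINE1 control they ran from -0.69 to -0.35 and from -0.57 to -0.26.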

How the data were processed

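The authors deposited raw counts for 15 libraries, in a table of 23284 genes with 92 ERCC spike-ins and a table of 1217 repeat subfamilies. The submitters' processing notes name Trim Galore 0.4.0 for trimming, TopHat2 2.0.9 as aligner, the build mm9, R 3.3.0 and DESeq2 1.12.3, with no settings. Libraries were made with the NEBNext Ultra Directional kit, per the labels.

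ERCC counts were left out of totals. Genes passing filterByExpr by group (14696) gave library totals and TMM factors, with which 803 subfamilies were fitted. Both tables were tested in edgeR 4.0.16 (R 4.3.3, quasi-likelihood, 1 term per group, 10 residual degrees of freedom), with Benjamini-Hochberg adjustment within each of 7 comparisons and a threshold of 0.05. DESeq2 1.42.0 was an alternative. Likeness used log2(CPM + 0.5). On data simulated for the LINE1 comparison, the repeat fit recovered 36.2% of changes of 0.5 on the log2 scale and 87.8% of changes of 1. The simulation gave all subfamilies the same dispersion, had no outlying library and changed 196 of 789 subfamilies for the smaller size. These shares are therefore not the power of the real comparison.

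Members, gene lists and comparisons were chosen with earlier results of these data known. All B2 and B3 subfamilies are named, and of each gene list at most 3 genes with the smallest p in a comparison. No replicate block was used, since the labels give no shared origin for a replicate number. Same-numbered libraries had correlated deviations above 0.1 in all 3 pairs over subfamilies for LINE1 siDux against RC siDux (0.172, 0.176 and 0.295), and over genes for siDux under RC ASO (0.241, 0.217 and 0.305) and under LINE1 ASO (0.543, 0.33 and 0.616). In these 3 comparisons the block called 0 B2 or B3 subfamilies, as did the fit without it.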

Additional observations from a re-analysis of the deposited data

How the results depend on the processing

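Direction held for B2_Mm1a and B2_Mm1t against RC control, with siNcl and with LINE1 ASO, under each setting run; their calls did not. With siNcl 2 members were lower as reported and 0 with scaling to ERCC counts, in the fit on the compared groups and against RC siDux or the mean of the other 4 groups, baselines chosen after the data were seen. With LINE1 ASO under siControl 0 were lower as reported, 1 with RLE factors or no filter, 2 with the repeat table's own totals and 2 with DESeq2. With 1 library left out the count ran from 0 to 2 with LINE1 ASO and from 1 to 2 with siNcl. The cause was not tested.

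Same-numbered replicates did not deviate together throughout, with correlations over subfamilies of -0.0157, -0.0921 and 0.224 for siNcl and 0.193, 0.0684 and 0.175 for LINE1 ASO under siControl. Replicate 1 held the lowest ERCC share of each group. Over the repeat counts, replicate 3 stood apart from replicates 1 and 2 in every group but RC control. In the groups other than RC control, chi-square per degree of freedom ran from 3.73 to 7.23 between replicates 1 and 2, and from 13.7 to 33.3 with replicate 3. Within RC control it was 58.5 between replicates 1 and 2, 67.6 between 2 and 3, and 13.1 between 1 and 3. With the replicate number as a block (replicate block), 2 members were lower with LINE1 ASO (B2_Mm1a adjusted p = 0.0307, B2_Mm1t 0.0392, edgeR) and 2 with siNcl. Over all subfamilies the block called 23 lower and 106 higher with LINE1 ASO (7 and 40 as reported) and 28 and 109 with siNcl (11 and 49). DESeq2 called 20 and 53, and 23 and 63, and the compared groups alone 0 and 6, and 1 and 10. Totals with no factor gave 4 and 128, and 9 and 68, and the repeat table's own totals 27 and 27, and 34 and 37. With 1 library left out, lower calls ran from 1 to 24 with LINE1 ASO and from 5 to 24 with siNcl, higher calls from 10 to 91 and from 19 to 65.

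Small differences changed sign with the scaling. With no factor, B2_Mm2 stood at 0.024 for LINE1 ASO under siControl and at 0.046 for LINE1 control against RC siNcl (log2 changes throughout). With the repeat table's own totals, B3A was at -0.0074 for LINE1 ASO under siControl, B2_Mm2, B3 and B3A at -0.044, -0.0501 and -0.031 for LINE1 ASO under siDux, and B3 and B3A at -0.0035 and -0.097 with siNcl. ERCC scaling moved the median of all genes by up to 0.43, and put B2_Mm2 at 0.089 for LINE1 ASO under siControl and at 0.14 for LINE1 control against RC siNcl. It put B2_Mm2, B3 and B3A at -0.20, -0.21 and -0.18 for LINE1 ASO under siDux, and B2_Mm1t and B2_Mm2 at 0.049 and 0.22 for siDux under RC and at -0.0825 and -0.29 for the interaction. For siDux under LINE1 it put B2_Mm1a, B2_Mm1t, B2_Mm2, B3 and B3A at -0.0698, -0.033, -0.069, -0.069 and -0.10. Against RC siDux, B3 and B3A with siNcl were at -0.057 and -0.082, and against the mean of the other 4 groups at -0.0066 and -0.068.

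Sums moved likewise. With no factor, LINE1 ASO under siControl had log2 differences of 0.32 for B3 and 0.17 for B1, LINE1 ASO under siDux 0.044 for B2 and siNcl 0.16 for B1. With own totals these were 0.0026 for B3 and -0.15 for B1, -0.12 for B2, and for siNcl -0.0345 for B3 and -0.077 for B1, with -0.063 for B1 in siDux under RC. With ERCC scaling B2, B3 and B1 stood at -0.0603, 0.41 and 0.26 for LINE1 ASO under siControl, at -0.27, -0.20 and -0.20 under siDux, at 0.14, 0.52 and 0.39 for siDux under RC, at -0.074, -0.0895 and -0.0802 for siDux under LINE1 and at 0.26, 0.21 and 0.10 for LINE1 control against RC siNcl, with B1 at 0.16 for siNcl.

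With 1 library left out, B2_Mm2 ran from -0.21 to 0.0016 for siDux under RC. For LINE1 ASO under siDux, B2_Mm1a ran from -0.18 to 0.021, B2_Mm2 from -0.0005 to 0.066, B3 from -0.027 to 0.079 and B3A from -0.0047 to 0.12. For siDux under LINE1, B2_Mm1a ran from -0.017 to 0.13 and B3A from -0.046 to 0.082. For LINE1 control against RC siNcl, B2_Mm2 ran from -0.059 to 0.0402 and B3 from -0.022 to 0.085. With 3 libraries per group, differences of this size were not resolved.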
